A study of Bos taurus with 30 samples.

Results

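The genes described here are 10 regulators and effectors of epithelial identity, namely CDH1, EPCAM, ESRP1, ESRP2, GRHL1, GRHL2, EHF, ELF3, OVOL1 and ERBB3. They were chosen by gene symbol for what they do, with earlier results of these data known. They are 10 of the 27607 genes counted in 30 libraries. Each symbol matched a single Ensembl gene identifier. Their mRNA was measured by RNA sequencing in primary bovine endometrial cells cultured under flow in an endometrium-on-a-chip, a microfluidic device in which epithelial cells lie above a porous membrane and stromal cells below it. The cells were isolated from the uteri of cows that were not pregnant and were early in their luteal phase. They were separated with cell strainers and further purified by their plating times, so each chamber held an enriched population and not a sorted one. The study checked both populations by flow cytometry. In the glucose experiment, epithelial and stromal cells received medium with 5 mM glucose, the control, or 50 mM glucose. In the insulin experiment, they received insulin at 1 ng/mL, at 10 ng/mL or the vehicle alone, all in medium with 5 mM glucose. Each of the 10 groups held 3 biological replicates, which gave 12 libraries with glucose and 18 with insulin. The animal behind each replicate is not given in the sources used here.

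Epithelial cells are held together by E-cadherin, the product of CDH1, and by EpCAM, and they keep these contacts through a small set of transcription factors and splicing regulators. Grainyhead-like factors (GRHL1, GRHL2), epithelium-specific ETS factors (EHF, ELF3) and OVOL1 act on epithelial genes or repress mesenchymal ones, and ESRP1 and ESRP2 direct the splicing of epithelial isoforms. Loss of this program is a mark of the epithelial to mesenchymal transition, in which SNAIL, ZEB and TWIST factors repress CDH1. In the endometrium, the luminal and glandular epithelia use it to form the barrier and the secretory surface that the embryo meets, and the stroma below does not.

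The counted reads of a library came to 13493503 to 16647701 in the epithelial and 14484828 to 16392267 in the stromal libraries of the glucose experiment, and 8826470 to 12754316 and 9229446 to 13214728 in those of the insulin experiment. Levels are reads relative to the library total (CPM) scaled with TMM factors, which correct for the composition of a library, and a count of 0 allows up to 3 reads, or 0.180 to 0.340 CPM, for counting error only. The scaling was done per experiment, so a level in one experiment is not strictly on the scale of the other. The labels were checked with 12 epithelial markers (among them KRT7, KRT8, KRT18, KRT19, CLDN3, CLDN4, CLDN7, DSP, PKP3, CRB3 and MAL2) and 10 stromal markers (among them VIM, collagens and PDGF receptors). The summed level of the epithelial markers was 5821 to 15240 CPM in epithelial libraries, against 3.96 to 4012 CPM in stromal ones, and that of the stromal markers was 963 to 5702 CPM and 16910 to 83190 CPM, respectively. The sums of other cell types were 2.31 to 20.1 CPM for 4 immune markers and 2.79 to 78.0 CPM for 5 endothelial markers over all libraries, and for 6 smooth muscle and pericyte markers 48.2 to 610 CPM in the epithelial libraries, against 1061 to 7734 CPM in the stromal ones. With insulin vehicle, 2 of 4 immune and 3 of 5 smooth muscle markers tested were called higher in stromal cells, and the 1 endothelial marker tested, VWF, higher in epithelial cells. Of all genes tested, 27.3% were called higher in stromal and 27.8% higher in epithelial cells. Some libraries stood apart from their group. The stromal libraries of 5 mM glucose replicate 1, of 50 mM glucose replicates 1, 2 and 3, of insulin vehicle replicate 2 and of 10 ng/mL insulin replicate 1 held epithelial markers at a median of 3.46% to 59.1% of the same-numbered epithelial library, against 0.0054% to 0.404% in the other stromal libraries. The epithelial library of 5 mM glucose replicate 2 had the highest sum of epithelial markers, 15240 CPM, where the other epithelial libraries had 5821 to 8243 CPM. In a bulk library, fewer cells of a type and less RNA per cell cannot be told apart.

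The mean level of all 10 genes was higher in epithelial than in stromal cells in each of the 5 conditions. E-cadherin (CDH1, ENSBTAG00000015991), the adhesion molecule of adherens junctions, had the narrowest range in epithelial cells. In epithelial cells it had 514, 441 and 523 CPM in replicates 1 to 3 at 5 mM glucose and 555, 528 and 601 CPM at 50 mM. In the insulin experiment it had 524, 528 and 548 CPM with vehicle, 540, 546 and 559 CPM at 1 ng/mL and 526, 532 and 539 CPM at 10 ng/mL. The highest of the 9 insulin libraries was thus 1.07 times the lowest, and the highest of the 6 glucose libraries 1.36 times. Stromal cells had 60.0, 1.33 and 0.445 CPM at 5 mM and 127, 37.6 and 448 CPM at 50 mM glucose. With insulin they had 0.511, 17.7 and 0.335 CPM in the vehicle group, 0.658, 0.358 and 1.10 CPM at 1 ng/mL and 20.8, 0.188 and 2.20 CPM at 10 ng/mL. The stromal levels therefore ran over a far wider range than the epithelial ones, and the 6 highest of them came from the 6 libraries that also held epithelial markers.

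**Figure D1:**
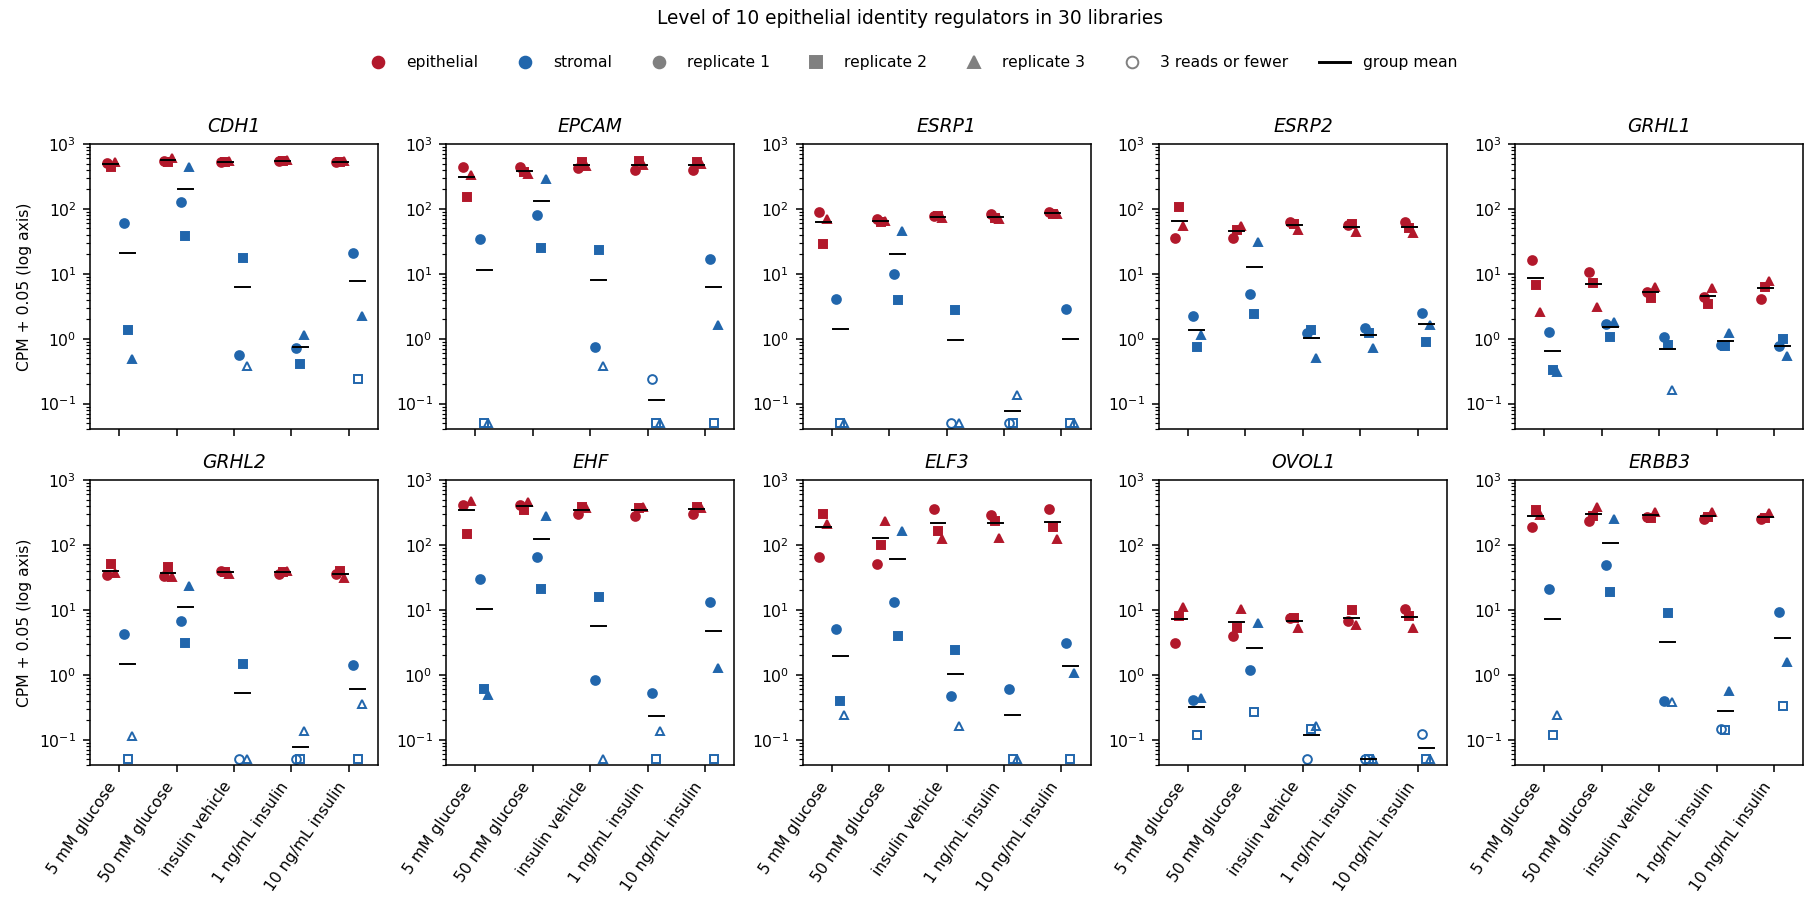
The level of each gene in every library, in CPM + 0.05 on a log axis, by condition. Red symbols are epithelial and blue symbols stromal libraries, the shape gives the replicate number, open symbols are libraries with 3 reads or fewer, and black bars are group means (n = 3). Epithelial levels of CDH1 sit between 441 and 601 CPM, and stromal levels run from 0.188 to 448 CPM.

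EPCAM (ENSBTAG00000006474) encodes a cell adhesion molecule of the lateral membrane that also acts in signaling. Its epithelial level was 448, 151 and 334 CPM at 5 mM and 440, 374 and 344 CPM at 50 mM glucose, and 393 to 542 CPM over the 9 insulin libraries. Replicate 2 at 5 mM was the lowest of all epithelial libraries. In stromal cells EPCAM had 34.4, 0 and 0 CPM at 5 mM and 81.7, 24.7 and 287 CPM at 50 mM. It was at 0 reads in 5 of the 15 stromal libraries, and over 3 reads in 8. At 1 ng/mL insulin the stromal group held 2 EPCAM reads against 15186 in the epithelial group, a ratio of 7903 per library size (95% exact interval 2187 to 65260, counting error only).

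The splicing regulators ESRP1 (ENSBTAG00000021838) and ESRP2 (ENSBTAG00000004375) are RNA-binding proteins that favour the epithelial exons of genes such as FGFR2, CD44 and ENAH. The authors' annotation gives ESRP2 the gene type pseudogene, and it was kept here under its symbol. In epithelial cells, ESRP1 had 90.3, 28.6 and 69.3 CPM at 5 mM glucose and 68.7, 62.9 and 65.9 CPM at 50 mM. ESRP2 had 35.5, 105 and 53.8 CPM at 5 mM and 35.8, 47.6 and 54.1 CPM at 50 mM. In replicate 2 at 5 mM, ESRP1 was at its lowest and ESRP2 at its highest. The ratio of ESRP2 to ESRP1 reads, which depends on the lengths of the genes and is compared only between libraries, was 3.68 there and between 0.393 and 0.820 in the other 14 epithelial libraries. In stromal cells ESRP1 had 0 reads in 8 of 15 libraries, whereas ESRP2 had over 3 reads in all 15, with 0.447 to 30.7 CPM.

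Of the grainyhead-like factors, GRHL2 (ENSBTAG00000004518), an activator of CDH1 and of other junction genes, varied little. It had 34.4, 50.1 and 36.5 CPM in the epithelial libraries of 5 mM glucose, 33.6, 45.2 and 32.5 CPM at 50 mM, and 31.4 to 40.1 CPM over the insulin libraries. GRHL1 (ENSBTAG00000007485), a related factor known from desmosomes of the skin, had 16.4, 6.75 and 2.54 CPM at 5 mM and 10.5, 7.19 and 2.99 CPM at 50 mM. Its replicates kept the same order at both concentrations, and replicate 1 was 6.45 times replicate 3 at 5 mM. Of the variance of GRHL1 on the log2(CPM + 1) scale among the 6 epithelial glucose libraries, 95.01% lay between replicate numbers and 0.496% between concentrations, which are fewer than the replicate numbers.

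The ETS factors EHF (ENSBTAG00000017150) and ELF3 (ENSBTAG00000008756) are transcription factors of differentiated epithelia. EHF had 411, 146 and 470 CPM at 5 mM glucose and 409, 341 and 460 CPM at 50 mM in epithelial cells, and 278 to 390 CPM in the insulin libraries. ELF3 had 64.2, 299 and 209 CPM at 5 mM, 51.3, 99.1 and 237 CPM at 50 mM, and 122 to 362 CPM with insulin. Among the glucose libraries, EHF was thus lowest and ELF3 highest in replicate 2 at 5 mM. ELF3 varied with the replicate number in the insulin libraries as well, with 358, 165 and 122 CPM in the vehicle group, 290, 231 and 127 CPM at 1 ng/mL and 362, 191 and 123 CPM at 10 ng/mL. In all 3 of these groups replicate 1 was the highest and replicate 3 the lowest, and 94.3% of the variance lay between replicate numbers.

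OVOL1 (ENSBTAG00000012656), a zinc finger repressor that opposes mesenchymal genes, was counted with 48 to 186 reads in an epithelial library. Its level was 2.99, 7.87 and 11.0 CPM at 5 mM and 3.85, 5.23 and 10.1 CPM at 50 mM glucose, and 5.16 to 10.1 CPM with insulin. It had over 3 reads in 4 of the 15 stromal libraries. ERBB3 (ENSBTAG00000010444), the ErbB receptor that binds neuregulins and signals through its partners, had 187, 342 and 294 CPM at 5 mM, 232, 275 and 378 CPM at 50 mM, and 253 to 322 CPM with insulin. In stromal cells it had 21.0, 0.0697 and 0.191 CPM at 5 mM and 48.9, 18.6 and 251 CPM at 50 mM.

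Ordered by group mean over the 10 groups, the 5 epithelial groups held the top 5 places for every one of the 10 genes, and the stromal group at 50 mM glucose was the highest stromal group for all of them. Most neighbours in that order overlapped in their libraries. Between the lowest epithelial group and the stromal group at 50 mM, the libraries did not overlap for ESRP2, GRHL1, GRHL2 and ERBB3, and they overlapped for CDH1, EPCAM, ESRP1, EHF, ELF3 and OVOL1. For GRHL1, GRHL2, EHF and ERBB3 that epithelial group was one of the separately scaled insulin experiment. ERBB3 had at least 253 CPM there, against up to 251 CPM in stromal cells at 50 mM. Its epithelial libraries at 5 mM glucose went down to 187 CPM, below that stromal level. Among the epithelial groups, 3 steps were free of overlap. CDH1 at 5 mM glucose was below CDH1 at 10 ng/mL insulin, ESRP1 at 10 ng/mL insulin was above ESRP1 with vehicle, and ESRP1 at 1 ng/mL insulin was above ESRP1 at 50 mM glucose. The first and last of these set levels of separately scaled experiments side by side. The shares of all genes free of overlap at such steps were not counted.

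The comparison of cell types asked how far these genes separate the chambers within a condition. Calls required a log2 fold change beyond 0.1 and an adjusted p under 0.05, where p came from the quasi-likelihood test of edgeR and was adjusted by Benjamini-Hochberg over all genes tested. In the insulin vehicle group, 10 of 10 genes were called higher in epithelial cells, where 27.8% of all genes tested were called in that direction, and the libraries of the cell types did not overlap for any of the 10. Over all genes tested, the epithelial libraries lay wholly above the stromal ones for 34.8%. The 10 genes were chosen as epithelial with earlier results known. Most had too few stromal reads to pass the filter without the epithelial libraries, which favours a fold towards these. Their counts and folds between cell types are thus not independent of the choice or of the filter. The log2 fold changes were 7.76 for CDH1 (standard error 1.37, edgeR adjusted p = 0.00902), 7.35 for EPCAM and 7.79 for ELF3. They were 7.12 for EHF, 7.18 for ERBB3, 6.53 for ESRP1, 6.34 for GRHL2 and 5.79 for ESRP2. GRHL1 had the smallest change, 2.97 (standard error 0.582, edgeR adjusted p = 0.0122). OVOL1 had 226 reads in epithelial and 2 in stromal cells, a ratio of 104 (95% exact interval 28.6 to 868). The median over the 10 genes was 6.82, or 6.91 with OVOL1 at its read ratio, beside 0.00295 over all genes tested. These folds moved with the alternatives, from 6.38 to 10.21 for CDH1, 5.83 to 9.67 for EPCAM, 6.95 to 9.73 for ELF3, 5.85 to 12.71 for ESRP1, 5.65 to 11.71 for GRHL2, 5.92 to 9.53 for EHF and 6.41 to 9.70 for ERBB3. All 7 were highest without replicate 2. ESRP2 and GRHL1 stayed at 5.58 to 6.01 and 2.37 to 3.45.

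At 1 ng/mL and 10 ng/mL insulin, 10 of 10 genes were called again, beside 29.6% and 27.1% of all genes. At 1 ng/mL, where none of the 3 stromal libraries held many epithelial marker reads, the 6 genes with over 3 stromal reads had log2 fold changes from 2.33 for GRHL1 to 10.79 for EHF. CDH1 had 9.57 (standard error 0.287, edgeR adjusted p = 3.2e-05) and ESRP2 5.61. ESRP1 and GRHL2 had 1 stromal read each, with ratios of 2502 (95% exact interval 449 to 98870) and 1277 (229 to 50480), and OVOL1 had 0, at least 84.3-fold lower than in epithelial cells. At 10 ng/mL, the fold changes ran from 2.94 for GRHL1 to 7.52 for ELF3 without OVOL1, whose single stromal read gave a ratio of 263 (95% exact interval 46.7 to 10430). Leaving out replicate 1 removes a vehicle pair whose stromal library held few epithelial marker reads. Then 7 of 10 genes were called in the vehicle group (19.7% of all genes), with adjusted p-values of 0.0568 for CDH1, 0.0638 for EPCAM and 0.0750 for EHF from edgeR. Without replicate 2, whose stromal vehicle library held the marker reads, 10 were called (22%). At 10 ng/mL, 7 were called without replicate 3 (18.2%), with 0.0596 for CDH1, 0.0774 for EPCAM and 0.0672 for EHF.

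At 5 mM glucose, 10 of 10 genes were called higher in epithelial cells beside 10.5% of all genes tested, with log2 fold changes from 3.85 for GRHL1 to 8.68 for EPCAM and a median of 7.17 (all genes, -0.00226). The edgeR adjusted p-values lay between 0.00691 and 0.0422. Over the alternatives the folds ran from 4.74 to 14.85 for EPCAM, 5.54 to 12.55 for ESRP1, 5.28 to 11.16 for ERBB3, 4.65 to 10.01 for GRHL2, 5.99 to 9.87 for ELF3, 4.57 to 9.20 for CDH1 and 5.06 to 9.03 for EHF. These 7 were highest without replicate 1, whose stromal library held epithelial marker reads. Those of ESRP2, OVOL1 and GRHL1 ran over 4.79 to 6.40, 4.05 to 5.48 and 3.57 to 4.08. Without the replicate number as a block, 6 of 10 were called (11.1% of all genes), and the values of CDH1, EPCAM, EHF and ERBB3 were then 0.0836, 0.145, 0.0580 and 0.0664. Without replicate 2, which holds the epithelial library that stood apart, 4 of 10 were called (ESRP1, ESRP2, GRHL1 and OVOL1), beside 11.6% of all genes. At 50 mM, 1 of 10 was called, beside 6.39% of all genes. That gene was GRHL1, with a log2 fold change of 2.08 (standard error 0.472, edgeR adjusted p = 0.0410). The other 9 genes had 1.91 to 2.58, with adjusted p-values of 0.0578 to 0.113, and the median of the 10 was 2.21 (all genes, 0.0319). The libraries of the cell types did not overlap for 7 of the 10 genes, and for 17.7% of all genes tested they were free of overlap with the epithelial ones higher. For ELF3, OVOL1 and ERBB3, the stromal library of replicate 3 lay within the epithelial range. The count at 50 mM depended on the test. DESeq2 called 10 of 10, beside 12% of all genes higher in epithelial cells. Without replicates 2 and 3, edgeR called 7 and 9, beside 5.44% and 13%, and without replicate 1 it called 0 of the 10 and 0 of all 14019 genes tested.

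Since the stromal libraries differed in their epithelial marker reads, the level of each gene in a stromal library was set against the same-numbered epithelial library of its condition. In the stromal library of 50 mM glucose replicate 3, all 10 genes lay between 56.7% for ESRP2 and 83.6% for EPCAM of the epithelial level, and the median of the 12 epithelial markers was 59.1%. The highest gene was thus 1.47 times the lowest. In replicate 1 at 50 mM they lay between 13.6% and 29.7% with a marker median of 17.3%, and in replicate 1 at 5 mM between 4.45% and 12.3% with a marker median of 7.22%. In these 3 libraries the ranges of the 10 genes spanned the marker median. This choice of denominator was made after the data were seen. Set against the mean of the 3 epithelial libraries instead, the spread was wider, and ELF3 and OVOL1 in 50 mM replicate 3 came to 125.7% and 95.97%, while GRHL1 came to 25.2%.

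**Figure D2:**
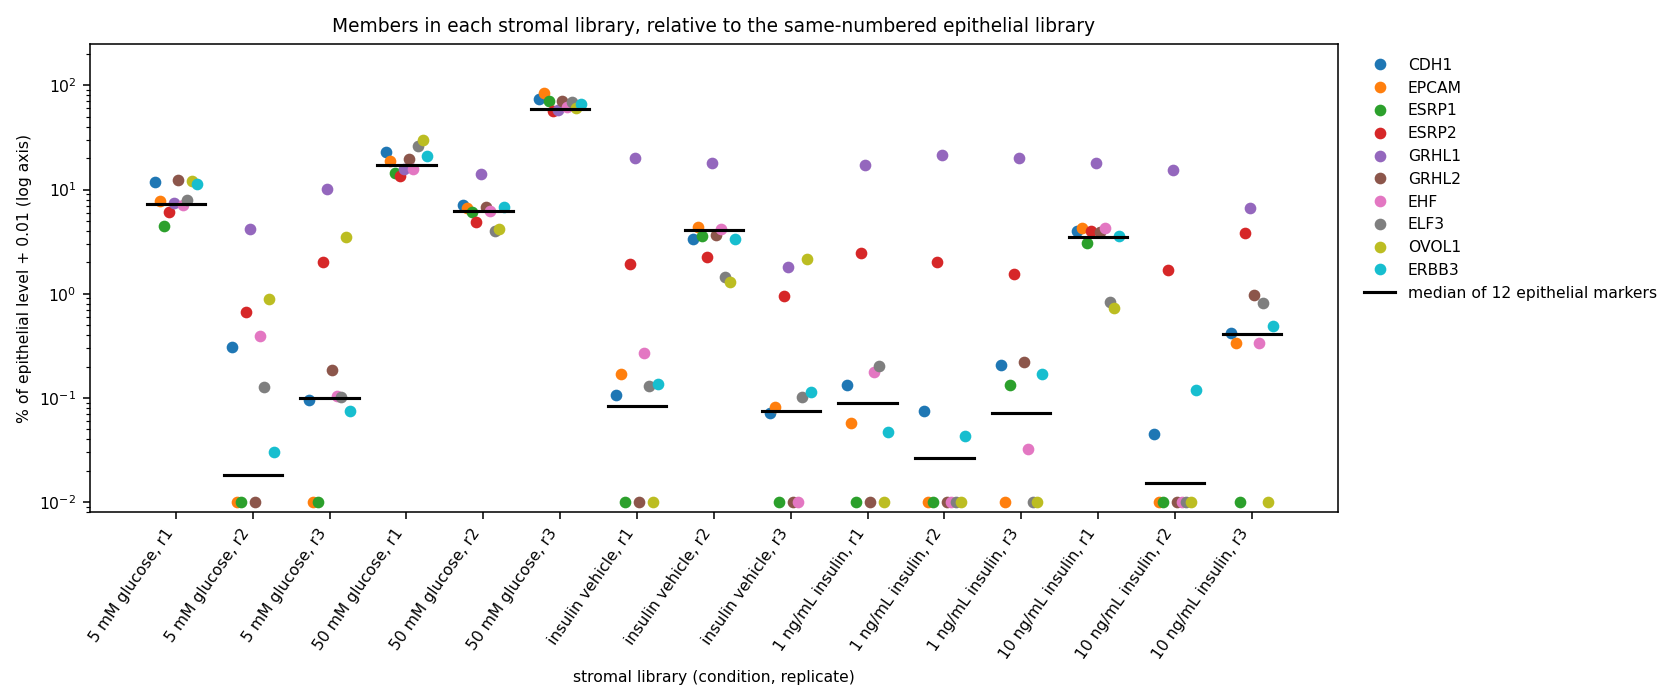
The level of each gene in the 15 stromal libraries as a percent of the same-numbered epithelial library (+ 0.01, log axis), by condition and replicate. Each color is a gene and black bars are the median of 12 epithelial markers. In 50 mM glucose replicate 3 all 10 genes lie between 56.7% and 83.6%, whereas in 8 of the 9 insulin libraries GRHL1 lies at 6.61% to 21.5%, above the other genes.

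GRHL1 lay apart from the other genes in several stromal libraries, with and without many epithelial marker reads. In 50 mM glucose replicate 2 it had 14.1%, from 14 reads, where the other 9 genes had 3.95% to 7.12% and the marker median was 6.22%. In the stromal libraries of 1 ng/mL insulin it had 17.2%, 21.5% and 20.0% of the epithelial level in replicates 1 to 3, from 8, 8 and 14 reads, where the marker medians were 0.0791%, 0.0165% and 0.0617%. The other 9 genes had at most 2.47%, 2.00% and 1.52% in these libraries, and ESRP2 was the highest of them each time. In insulin vehicle replicate 2 and 10 ng/mL replicate 1, GRHL1 had 18.1% and 17.9%, beside marker medians of 4.07% and 3.46%. Its stromal level was 0.758 and 0.729 CPM in these libraries with marker reads and 0.752, 0.717 and 1.18 CPM in the 3 libraries of 1 ng/mL. Over the 15 stromal libraries its share was 1.78% at the lowest, 15.6% at the median and 58.2% at the highest, and it was the highest of the 10 genes in 11 libraries (13 against the group means). Insulin vehicle replicate 3 was the exception among the insulin libraries, with 1 GRHL1 read and 1.78%. These shares rest on 1 to 27 stromal reads a library. ESRP2 was next, with 0.662%, 2.26% and 56.7% at the lowest, the median and the highest. For the other 8 genes the median share was 0% to 0.886%.

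The effect of high glucose was then compared within each cell type. In epithelial cells, 0 of 10 genes were called between 50 and 5 mM, beside 0% of all genes tested. None of the 10 had an unadjusted p under 0.05 in edgeR, and DESeq2 called none of them either. Without replicate 2, edgeR called 1.59% of all genes (85 higher and 136 lower at 50 mM), and again 0 of the 10. The log2 fold changes ran from -0.58 for ELF3 (standard error 0.386, edgeR adjusted p = 0.804) to 0.42 for EPCAM (standard error 0.330, edgeR adjusted p = 0.804), with a median of -0.0111 beside 0.00908 over all genes. CDH1 had the smallest standard error, 0.203 for a change of 0.18, and it was higher at 50 mM in 3 of 3 pairs. GRHL2 was lower in 3 of 3 pairs, with -0.13 (standard error 0.213). The other 8 genes went both ways between the pairs. The widest changes were those of pair 2, with log2 differences of 1.31 for EPCAM, 1.22 for EHF, 1.12 for ESRP1, -1.14 for ESRP2 and -1.59 for ELF3 on the log2(CPM + 0.5) scale. In pairs 1 and 3 these 5 genes stayed between -0.394 and 0.177. Without replicate 2, the fold changes of ESRP1, EHF, ESRP2 and OVOL1 turned to -0.24, -0.0253, 0.00384 and 0.0452. Without replicate 1, GRHL1 turned to 0.13, and ERBB3 to -0.0046 without replicate 1 and to -0.0304 without replicate 3.

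**Figure D3:**
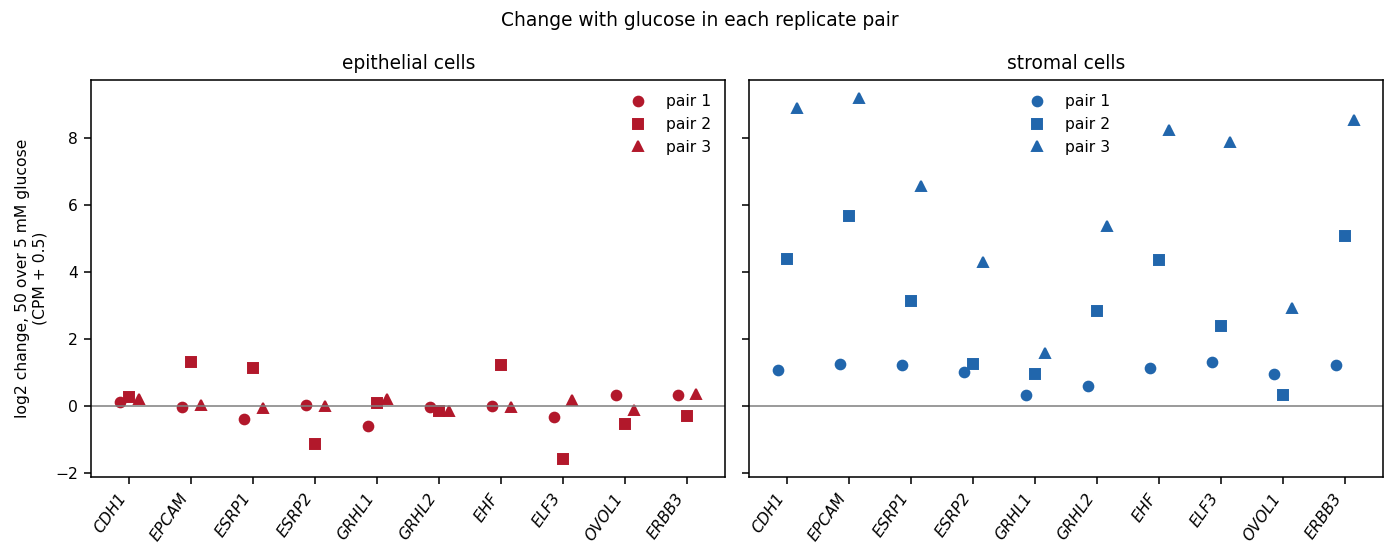
The log2 change from 5 to 50 mM glucose of each gene in each pair of same-numbered libraries, on the log2(CPM + 0.5) scale, for epithelial (left) and stromal cells (right). Symbols are pairs 1 to 3. Epithelial changes lie between -1.59 and 1.31 with pair 2 at either end, and stromal changes lie between 0.320 and 9.17, all above 0.

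In stromal cells, 9 of the 10 genes passed the filter on low counts and 0 of 9 were called, beside 0% of all genes tested. Only ESRP2 had an unadjusted p under 0.05 (0.0410), and DESeq2 called 2 of 9, EPCAM and ERBB3, beside 1.3% of all genes (175 of 178 of them higher at 50 mM). All 10 genes were higher at 50 mM in 3 of 3 pairs, but the size of the change differed widely between the pairs. For CDH1 the pairs gave log2 differences of 1.07, 4.38 and 8.89, and for GRHL1 0.320, 0.959 and 1.57. The fitted log2 fold changes ran from 1.51 for GRHL1 (standard error 0.572) to 5.88 for EPCAM (standard error 2.59), with an edgeR adjusted p of 0.696 for each of the 9, and the median was 4.42 beside -0.0280 over all genes. At 5 mM, replicates 1 to 3 held 480, 0 and 0 reads of EPCAM, 56, 0 and 0 of ESRP1, 59, 0 and 1 of GRHL2 and 292, 1 and 3 of ERBB3. Such genes could pass the filter only with the 50 mM libraries, which favours a positive fold. The folds and their median are thus not independent of the filter. The 12 epithelial markers moved alongside, with a median of 4.49, and edgeR called 0 of 12, of which 4 had an unadjusted p under 0.05, where DESeq2 called 10. Their summed level was 558, 362 and 79.7 CPM at 5 mM and 1355, 998 and 4012 CPM at 50 mM in replicates 1 to 3, and that of the 10 stromal markers was 68160, 65380 and 56400 CPM against 76860, 54730 and 16910 CPM. At 5 mM replicate 2, KRT8 (162 CPM) and KRT18 (195 CPM) made up most of the sum. None of the 12 was at 0 in all libraries of either stromal glucose group, whereas CLDN3 and CRB3 were at 0 in all 3 stromal libraries of 1 ng/mL insulin. The part of these marker reads in the change of the 10 genes was not tested. Without replicate 3, the fold changes of the 9 genes fell to between 0.891 for GRHL1 and 2.55 for EPCAM, with adjusted p-values of at least 0.420 from edgeR. Without replicate 1, EPCAM, GRHL2 and ERBB3 were called, with edgeR adjusted p-values of 0.0355, 0.0381 and 0.0271, beside 0.363% of all genes.

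The difference between the cell types in the glucose effect was tested as an interaction over the 12 libraries. It was below 0, a smaller change in epithelial cells, for 10 of 10 genes, from -6.04 for EPCAM to -1.63 for GRHL1. Over all genes tested, 49.5% lay above 0. None of the 10 was called (edgeR adjusted p from 0.631 to 0.660), beside 0% of all genes tested. At an unadjusted p under 0.05, 9 of 10 passed, beside 1102 of all 14640 genes tested, and the smallest was 0.00301 for OVOL1 (-2.99, standard error 0.697). The 10 genes share the stromal libraries at 50 mM that held epithelial marker reads, so they are not independent of each other. The part of these reads was not tested. DESeq2 called 4 of 10 (EPCAM, ERBB3, ESRP2 and OVOL1), beside 1.71% of all genes (244 of 250 below 0). Without replicate 1, edgeR called 7 of 10, which were all but ESRP2, GRHL1 and OVOL1, beside 2.08% of all genes (305 of 307 below 0).

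The insulin comparisons asked whether a dose moved these genes within a cell type. In epithelial cells, edgeR called 0 of 10 genes at 1 ng/mL against vehicle (0% of all genes), at 10 ng/mL against vehicle (0.124%) and at 10 against 1 ng/mL (0%), and DESeq2 also called none in the 3 comparisons. The log2 fold changes lay between -0.19 and 0.14 for 1 ng/mL against vehicle, between -0.12 and 0.21 for 10 ng/mL against vehicle and between -0.09 and 0.39 for 10 against 1 ng/mL. Many were closely bounded, as for CDH1 with 0.042 (standard error 0.0425) and 0.00051 (standard error 0.0377) in the comparisons with vehicle. At an unadjusted p under 0.05, 0, 1 and 1 genes passed, and the gene was ESRP1 both times. ESRP1 had 77.4, 77.5 and 72.4 CPM in replicates 1 to 3 with vehicle, 83.8, 71.1 and 68.7 CPM at 1 ng/mL and 90.7, 82.8 and 82.5 CPM at 10 ng/mL. At 10 ng/mL it was higher than with vehicle in 3 of 3 pairs and the libraries did not overlap. The share of all genes free of overlap between these groups was not counted, and ESRP1 was named for having the smallest p. The log2 fold change was 0.18 (standard error 0.0513, unadjusted p = 0.00162 and adjusted p = 0.285 from edgeR), and between 0.15 and 0.22 over the alternatives. Against 1 ng/mL, a comparison that shares the 10 ng/mL libraries, it was 0.20 (standard error 0.0519, unadjusted p = 0.00149 and adjusted p = 0.964 from edgeR). ESRP2 had the smallest p for 1 ng/mL against vehicle, with -0.0767 (standard error 0.0600, unadjusted p = 0.215 from edgeR), and was lower in 3 of 3 pairs. Without replicate 1, ELF3 was called for 1 ng/mL against vehicle, beside 0.189% of all genes, with 0.27 (edgeR adjusted p = 0.00661), where pair 1 had gone the other way.

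In stromal cells, most of the genes were too low to be tested for insulin. Only ESRP2 passed the filter for 1 ng/mL against vehicle, 6 genes for 10 ng/mL against vehicle, and CDH1 and ESRP2 for 10 against 1 ng/mL. None of the tested genes was called in the 3 comparisons by edgeR or DESeq2, where edgeR called 0.0157%, 0% and 0.0313% of all genes. At an unadjusted p under 0.05, 0, 0 and 1 passed. The smallest p was that of CDH1 for 10 against 1 ng/mL, with a log2 fold change of 3.04 (standard error 0.646, unadjusted p = 0.000667 and adjusted p = 0.340 from edgeR). It was higher in 2 of 3 pairs, by 4.20 in pair 1, and the epithelial marker sum of that pair rose from 8.74 to 257 CPM. Without replicate 1 it was 0.69 (edgeR adjusted p = 0.679). With no filter on low counts, 4 of 10 genes were called for 1 ng/mL against vehicle (CDH1, EHF, EPCAM and ERBB3, all lower) and 6 for 10 against 1 ng/mL (these 4 with ELF3 and ESRP1, all higher), beside 0.826% and 0.871% of all genes. Without replicate 2, EPCAM and EHF were called in the latter, beside 0.185%. ESRP2 had the smallest p in the other comparisons, with 0.13 (standard error 0.369, unadjusted p = 0.724 from edgeR) for 1 ng/mL and 0.69 (standard error 0.448, unadjusted p = 0.160 from edgeR) for 10 ng/mL against vehicle. For 10 ng/mL against vehicle, edgeR without replicate 2 called 5 of 6 genes as higher (all but ESRP2) and 0.612% of all genes. The pair left out had an epithelial marker sum of 326 CPM with vehicle and 3.96 CPM at 10 ng/mL. Pair 1, which stays in that fit, had 10.2 CPM with vehicle and 257 CPM at 10 ng/mL. The same stromal libraries enter the interaction without replicate 2. The part of these marker reads in the calls was not tested. The interaction of 10 ng/mL insulin with the cell type called 0 of 10 genes (edgeR adjusted p of 1 for each), beside 0% of all genes. None of the 10 had an unadjusted p under 0.05, DESeq2 called 0, and edgeR called 7 without replicate 2 (all but ESRP2, GRHL1 and OVOL1, beside 1.21% of all genes) and 1, ESRP1, without replicate 1 (0.322%).

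Among the epithelial libraries, the median share of the variance between replicate numbers was above that between doses. On the log2(CPM + 1) scale, the median over the 10 genes was 69.7% between replicate numbers and 7.56% between glucose concentrations, and 77.5% and 5.94% in the insulin experiment. The glucose libraries have more replicate numbers than concentrations, which by itself raises the share between replicate numbers. CDH1 with glucose (44.5% between replicate numbers, 50.5% between concentrations) and ESRP1 with insulin (35.4% and 51.6%) went the other way. Over all genes with at least 1 CPM in 3 libraries, the medians were 57.6% and 11.9% with glucose and 70.9% and 6.45% with insulin. The ratio of the highest to the lowest epithelial library had a median of 3.07 over the 10 genes with glucose (all genes, 2.47) and of 1.39 with insulin (all genes, 1.51). CDH1 had the lowest ratio in both experiments, and GRHL1 with glucose (6.45) and ELF3 with insulin (2.96) the highest. Over both cell types, the median share between cell types was 95.3% with insulin (all genes, 70.9%) and 59.7% with glucose (all genes, 31.0%).

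The 10 genes did not rise and fall together within epithelial cells. After the mean of each experiment was subtracted, the Pearson r of a gene with the mean of the other 9 over the 15 epithelial libraries was 0.501 for OVOL1, 0.0895 for CDH1, below 0 for the other 8, and -0.915 for GRHL1. These values describe libraries that share replicate numbers and are not independent, and no p is given.

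**Figure D4:**
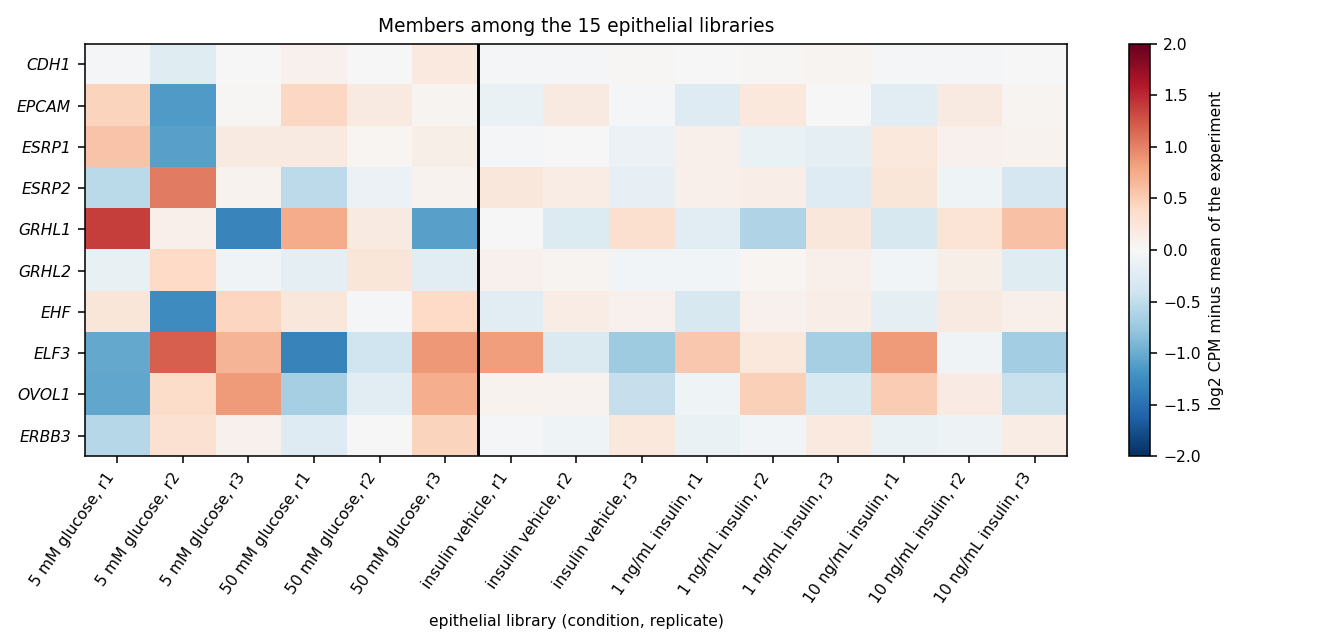
The level of each gene in the 15 epithelial libraries as log2 CPM minus the mean of its experiment, by condition and replicate. Red is above and blue below the mean, and the black line separates the glucose from the insulin libraries. EPCAM, ESRP1 and EHF are lowest and ESRP2 and ELF3 highest in 5 mM glucose replicate 2, GRHL1 and ELF3 differ by replicate number, and CDH1 is close to its mean throughout.

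The genes most like the mean of the 10 were sought among the other protein-coding genes, 13814 over all libraries and 13021 over the epithelial ones, as a description with no p. Over the 30 libraries these were CLDN7, a tight junction claudin that binds EpCAM (Pearson r = 0.997), RBM47, RAB25, PRSS8 and BAIAP2L1 (r = 0.996 for the last). Over both cell types, r also reflects the difference between epithelial and stromal cells, so it does not show a specific link to the 10 genes. With a pseudocount of 0.1 CPM, 1 of these 5 remained among the top 5, and with Spearman's rho 0 did, so the order at the top is not fixed. Over the 15 epithelial libraries they were TET2 (r = 0.910), ENSBTAG00000049294, LAP3, RSPH10B and APOL3 (r = 0.903), of which 3 and 2 remained. The 10 genes did not move together in these libraries, so likeness to their mean is not likeness to each gene.

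Related genes were compared between the cell types of the insulin vehicle group by list. Of the transcription factors of the epithelial to mesenchymal transition, 9 of 9 identifiers (8 genes, with ZEB2 under 2 identifiers) were called higher in stromal cells, beside 27.3% of all genes tested, with a median log2 fold change of -3.43. TWIST2 had -4.49, ZEB2 -4.39 and -4.32, and TWIST1 -3.99. At 5 and 50 mM glucose, 9 of 9 were called in the same direction, beside 10.6% and 10.9% of all genes, with medians of -3.67 and -2.81.

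**Figure D5:**
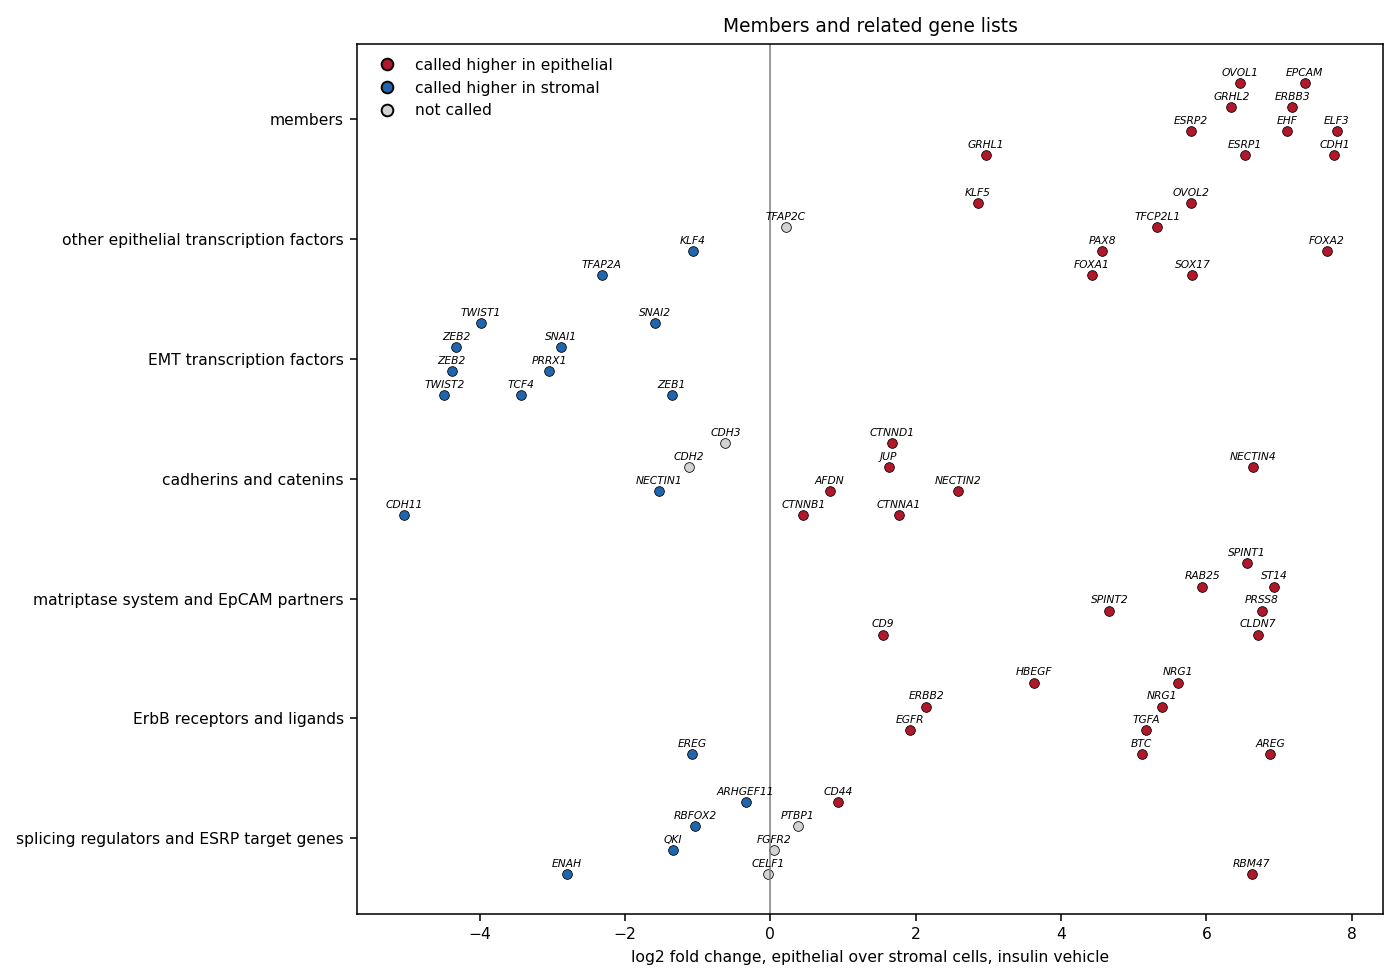
The fitted log2 fold change of tested genes between epithelial and stromal cells in the insulin vehicle group (n = 3 libraries each), by list. Red genes were called higher in epithelial and blue genes higher in stromal cells, and grey genes were not called. All 10 genes of this group lie on the right, with GRHL1 at 2.97 and the others above 5, and the 9 identifiers of the transition factors lie on the left. The fitted values of OVOL1, FOXA2 and TFCP2L1 rest on 3 stromal reads or fewer.

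Of 12 other epithelial transcription factors tested, 9 were called higher in epithelial cells, 2 higher in stromal cells and 1 was not called, with a median of 4.95. Over all genes tested, 27.8% and 27.3% were called in these 2 directions. FOXA2, a factor of uterine glands, had 313 reads in epithelial and 1 in stromal cells, a ratio of 289 (95% exact interval 51.5 to 11460). TFAP2A (-2.32) and KLF4 (-1.07) were higher in stromal cells, and TFAP2C had 0.22 (edgeR adjusted p = 0.822). GRHL3, ELF5 and SPDEF were too low to be tested, with 12, 38 and 6 epithelial reads.

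Among cadherins, catenins and nectins, 7 of 11 were called higher in epithelial cells, 2 higher in stromal cells, and 2 were not called, with a median of 0.82. NECTIN4 had 6.64, NECTIN2 2.58 and CTNNA1 1.77. CDH11, the cadherin of mesenchymal cells, was higher in stromal cells (-5.04), as was NECTIN1 (-1.54). N-cadherin (CDH2) had -1.12 (edgeR adjusted p = 0.152) and CDH3 -0.62 (edgeR adjusted p = 0.231). The matriptase system and the partners of EpCAM were called higher in epithelial cells in 8 of 8 cases (median 6.63), with 6.94 for the matriptase gene ST14 and 6.76 for PRSS8. CLDN7, which is on this list, also belongs to the 12 markers.

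Of the ErbB receptors and ligands around ERBB3, 8 of 9 identifiers were called higher in epithelial cells (median 5.11), beside 27.8% of all genes tested. The ligand AREG had 6.88, and NRG1, the neuregulin that ERBB3 binds, 5.61 and 5.39 under its 2 identifiers, and TGFA had 5.18. ERBB2, the partner receptor of ERBB3, had 2.14, a gene singled out after its value was seen. EREG was higher in stromal cells (-1.08), a call that was lost without the replicate block and without replicate 2 or 3. ERBB4, with 9 epithelial reads and 1 stromal read, was not tested. Of the splicing regulators and ESRP targets, 2 of 9 were higher in epithelial cells (RBM47 with 6.63 and CD44 with 0.93) and 4 in stromal cells, among them ENAH (-2.80), QKI (-1.34) and RBFOX2 (-1.04). The count higher in epithelial cells was near the share over all genes, 27.8%, and 27.3% of all genes were called higher in stromal cells. FGFR2 (0.051), CELF1 (-0.036) and PTBP1 (0.38) were not called (edgeR adjusted p = 0.924, 0.794 and 0.0626). Gene counts do not show which exons of the ESRP targets were used. At 5 mM glucose, 9 of 13, 4 of 11, 6 of 8, 7 of 9 and 1 of 9 tested identifiers of these 5 lists, in the order given, were called higher in epithelial cells. The share over all genes was 10.5%. At 50 mM these counts were 4 of 12, 2 of 11, 1 of 8, 2 of 9 and 0 of 9, beside 6.39% of all genes. Between 50 and 5 mM glucose, edgeR called 0 genes of these 5 lists and of the transition factors in either cell type, beside 0% of all genes. At an unadjusted p under 0.05, 1 of 14 other epithelial factors passed in epithelial cells, and in stromal cells 1 of 11 of these factors, 1 of 8 ErbB genes and 1 of 9 splicing genes. DESeq2 called none in epithelial cells, and in stromal cells 6 of 8 genes of the matriptase list and 2 of 11 other epithelial factors, beside 1.3% of all genes.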

How the data were processed

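RNA of 30 stranded, single-end libraries was sequenced. The authors trimmed adaptors with Cutadapt, filtered reads by quality, mapped them to the cow genome of Ensembl with Rsubread, kept uniquely mapped reads and counted them per gene with featureCounts. The name of the build, the tool versions and the strand setting of the counting are not given in the sources used here. The values used are these raw counts as deposited, in a table per experiment. Each gene has a single value per library, so reads shared with a near-identical copy or an overlapping gene cannot be told apart. The 13 tables of the authors' comparisons gave gene symbols and gene types for 17468 identifiers, of which 14951 had a symbol. Their fold changes and p-values were not used.

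Libraries were grouped by cell type, glucose and insulin as the labels give them. For each comparison of 6 libraries, genes were filtered with filterByExpr, scaled by TMM and tested with the quasi-likelihood test of edgeR 4.0.16 in R 4.3.3, with the replicate number as a block because the methods of the study state a paired design. A gene can pass this filter through a single group, which favours a fold towards that group. Calls used a Benjamini-Hochberg adjusted p under 0.05 over all genes tested and a log2 fold change beyond 0.1. Standard errors are the fold change over the square root of F. Interactions were fitted over 12 libraries with the replicate within cell type as a block. With the block, p-values measure the spread left between these samples after differences shared by same-numbered libraries are taken out. Same-numbered libraries deviated from their group means together, with correlations of 0.193 to 0.836 across genes within a cell type and 0.036 to 0.515 between cell types, where 5 mM glucose and 10 ng/mL insulin fell under 0.1.

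Levels are CPM on TMM-scaled totals. Pairwise changes used a pseudocount of 0.5 CPM, and variance shares and likeness 1 CPM. Genes with 3 or fewer stromal reads in a group are given as read ratios with exact intervals, and genes at 0 by the limit of 3 reads. Intervals and limits cover counting error only. The fitting was tested on simulated counts. Alternatives were DESeq2 1.42.0, its size factors, no filter, a filter of 1 CPM in 3 libraries, no block, one fit over the experiment and each replicate left out.

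The 10 genes and the lists were chosen with earlier results of these data known. Genes named from a list were up to 3 called in each direction with the largest change with insulin vehicle, plus those not called. For insulin, the gene with the smallest p in each comparison was named, and for likeness the 5 protein-coding genes with the highest Pearson r. TP63, TSPAN8, NRG2, NRG4, EGF, PTPRC, CD3E and KDR did not match a symbol and are not analysed here. Gene sequences and coordinates were not used. Some genes that the naming rule covers are not reported here by name, though the counts of their lists include them.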

Additional observations from a re-analysis of the deposited data

Results flagged for a closer look

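Between 50 and 5 mM glucose, GRHL2 was lower at 50 mM in 3 of 3 epithelial pairs and higher in 3 of 3 stromal pairs. It was called in neither cell type, with log2 fold changes of -0.13 (standard error 0.213, unadjusted p = 0.568) in epithelial and 3.80 (standard error 1.71, unadjusted p = 0.0866) in stromal cells by edgeR. In stromal cells GRHL2 could pass the filter on low counts only with the 50 mM libraries, which favours a positive fold. The interaction term, epithelial minus stromal, was -3.77 on the log2 scale (standard error 1.51, unadjusted p = 0.0386 and adjusted p = 0.654 by edgeR, quasi-likelihood, over 12 libraries). This term was below 0 for all 10 genes and had an unadjusted p under 0.05 for 9 of them, beside 1102 of all 14640 genes tested. Its stromal level was 4.23, 0 and 0.0635 CPM at 5 mM and 6.66, 3.04 and 22.9 CPM at 50 mM, and the summed epithelial markers in the same libraries were 558, 362 and 79.7 CPM and 1355, 998 and 4012 CPM. Their part in the difference was not tested.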

How the results depend on the processing

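Of the counts of the 10 genes called, 114 alternative values lay within 1.5 times the reported one and 19 did not. Between the cell types at 50 mM glucose, the count of 1 became 10 with DESeq2, 6 with no filter (6.77% of all genes higher in epithelial cells), 3 with one fit over the experiment (7.52%), and 0 to 9 with a replicate left out. At 5 mM the count of 10 became 6 without the replicate block and 4 to 10 with a replicate left out. The replicate block was used because the study's design was paired, and without it no other count of the 10 genes called moved by more than 1.5 times. Over all genes, the count higher in epithelial cells at 50 mM went from 888 to 253 without the block, and the counts for insulin from 16 to 0 in epithelial cells at 10 ng/mL against vehicle, and from 2 and 4 to 0 in stromal cells at 1 ng/mL against vehicle and at 10 against 1 ng/mL. The call of EREG was also lost. Without replicate 2, the count over all genes between 50 and 5 mM glucose in epithelial cells went from 0 to 221. For the glucose effect, the count of 0 became 2 with DESeq2 and 0 to 3 with a replicate left out in stromal cells, and 4 with DESeq2 and 0 to 7 with a replicate left out for the interaction. For insulin, counts of 0 became 4 (1 ng/mL against vehicle) and 6 (10 against 1 ng/mL) with no filter in stromal cells. With a replicate left out they ran from 0 to 1 in epithelial cells at 1 ng/mL, 0 to 5 in stromal cells at 10 ng/mL against vehicle, 0 to 2 at 10 against 1 ng/mL, and 0 to 7 for the interaction. The cause of these changes was not tested. Log2 fold changes of single genes were tallied between cell types with insulin vehicle and at 5 mM glucose, and for 50 against 5 mM glucose. For insulin, only the gene of smallest p in each comparison was tallied. Left out were the interactions and the cell types at 50 mM glucose and at 1 and 10 ng/mL insulin. Calls of single genes moved at 50 mM, at 10 ng/mL and in the interactions as well. Of the tallied values, 378 kept direction and call, 13 lost and 6 gained the call, and 7 reversed. The reversals were all between 50 and 5 mM glucose in epithelial cells, where no gene was called. There, leaving out each replicate in turn gave -0.24 to 0.50 for ESRP1, -0.60 to 0.00384 for ESRP2, -0.38 to 0.13 for GRHL1, -0.0253 to 0.58 for EHF, -0.38 to 0.0452 for OVOL1 and -0.0304 to 0.33 for ERBB3, which was -0.0046 without replicate 1. With the same-numbered epithelial library as the reference, a choice made after seeing the data, GRHL1 had the highest stromal share in 11 of 15 libraries in place of 13. Depth limits the stromal levels, where GRHL1 rests on 1 to 27 reads a library and 6 of the 10 genes had 0 reads in at least 3 stromal libraries.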
